A study of Mus musculus with 4 samples.

Results

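Forelimbs of mouse embryos cultured with cyclopamine differed from control forelimbs in 8 genes that are described here because they lie outside the standard limb signalling pathways. They are Mamdc2, Frem1, Fibin, Enpp2, Car12, Ano1, Aox3 and Kif1a, 8 of 17568 genes in the deposited table. They were picked by name, with results of these data known, because both cyclopamine values lay on the same side of both control values. The difference between the groups is therefore a description for these 8 genes, and the counts of calls given for them carry no weight as a test. The rule alone is loose: among 13568 genes that averaged 1 CPM or more (CPM is normalized counts per 1000000 reads), 32.6% had groups that did not overlap, 16.8% with cyclopamine higher and 15.8% with cyclopamine lower. All 8 genes passed that filter on low values.

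RNA was sequenced on the SOLiD platform, a ligation-based short-read sequencer, from wild-type Swiss Webster forelimbs at E10.25, staged at 31 to 34 somites. A group of 2 libraries came from limbs cultured with cyclopamine and a group of 2 from limbs in control medium, both called biological replicates by the submitters. Neither dose, vehicle and culture time nor how many limbs went into a library is given in the sources used here. The p-values below rest on a spread between libraries that the fit shares across genes. How that spread relates to embryos is unknown, because nothing states how many embryos each library holds.

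Cyclopamine is a plant alkaloid that blocks Smoothened, through which cells receive Hedgehog signals. In the limb bud the ligand Shh comes from posterior mesenchyme, and the transcriptional output of the pathway runs through the GLI factors. The 8 genes are not part of that core. They encode extracellular proteins (Mamdc2, Frem1, Fibin, Enpp2), membrane proteins (Car12, Ano1), a soluble enzyme (Aox3) and an axonal motor (Kif1a).

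The libraries held 9779589 to 13555492 gene-assigned reads. The response to the drug was visible in the pathway's own target gene Gli1, which had 8.05 and 4.70 CPM in cyclopamine against 56.2 and 56.7 CPM in control. The labelled tissue was checked with markers. All 8 limb mesenchyme markers were present, and the forelimb gene Tbx5 had 193 and 226 CPM in cyclopamine against 201 and 224 CPM in control. The hindlimb genes Pitx1 and Tbx4 together had 9.70 and 10.9 CPM in cyclopamine against 12.1 and 5.73 CPM in control. Markers of neural tissue moved with the groups. The 12 neuron markers summed to 146 and 139 CPM in cyclopamine against 189 and 217 CPM in control, and all 11 tested had a log2 fold change below 0. The 5 measured neural progenitor markers summed to 1.26 and 2.67 CPM in cyclopamine against 11.2 and 25.4 CPM in control. No marker of either list was at 0 reads in all libraries, though Ina, which encodes a neuronal filament, had 0 reads in cyclopamine 1 and in cyclopamine 2.

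Of the 8 genes, 6 were lower in cyclopamine and 2, Fibin and Kif1a, were higher. In limma on log2(CPM + 0.5), all 8 were among the genes past an adjusted p of 0.05, where the background over all genes tested was 0.28%, or 0.236% for the 6 in the lower direction and 0.0442% for the 2 in the higher direction. The authors' deposited table also has all 8 past a false discovery rate of 0.05, against 0.455% of its genes. Both counts follow from how the genes were picked, and nothing is read from them.

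**Figure D1:**
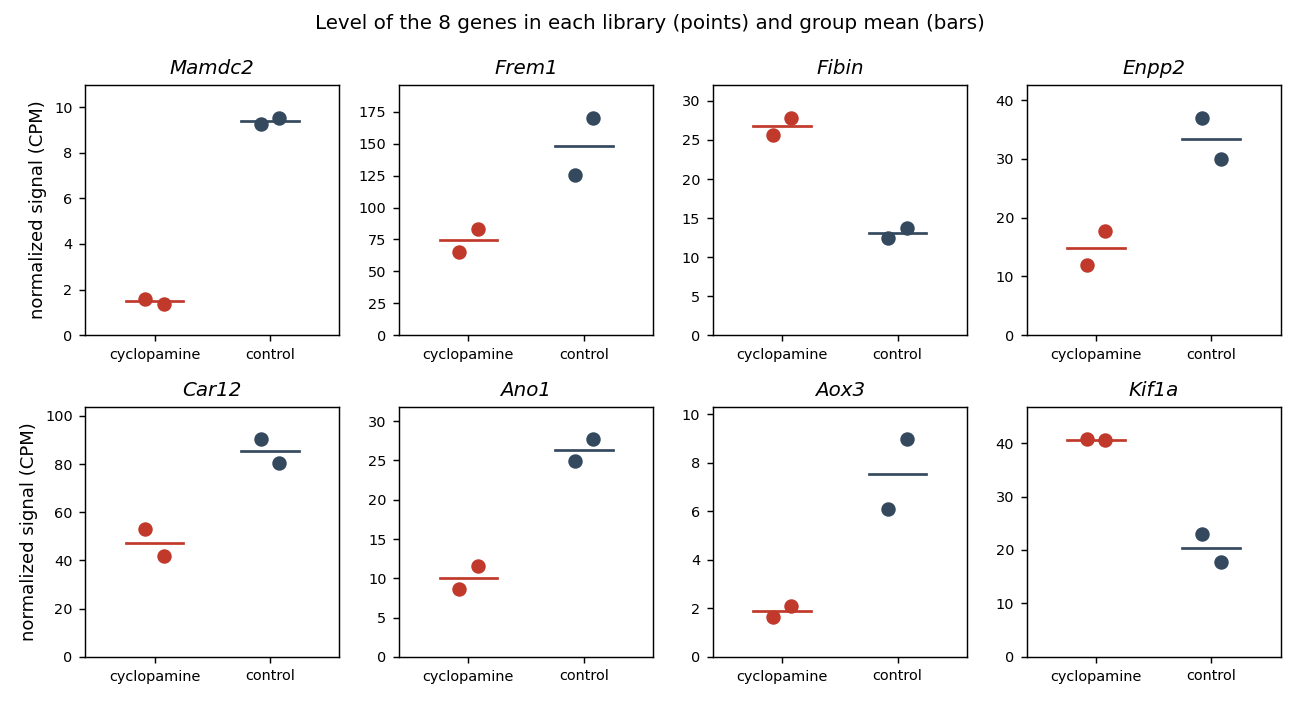
Normalized signal in CPM (vertical axes, each from 0) of the 8 genes in the cyclopamine and control libraries. Points are libraries and bars are means of 2. The groups do not overlap in any panel, and the cyclopamine points of Mamdc2 (1.58 and 1.38 CPM) lie farthest, in fold, from the control points (9.29 and 9.55 CPM).

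Mamdc2, which encodes a secreted proteoglycan with MAM domains, had the largest fold difference of the 8. It measured 1.58 and 1.38 CPM in cyclopamine (20 and 17 reads) against 9.29 and 9.55 CPM in control (90 and 130 reads). The libraries of each group lay close together, and the lowest control value was 5.89-fold above the highest cyclopamine value. The means were 1.48 ± 0.142 CPM in cyclopamine and 9.42 ± 0.187 CPM in control (SD, n = 2 each). The difference was -2.33 (SE 0.31) as a log2 fold change of CPM + 0.5, a scale that shrinks changes of scarce genes. The authors' deposited table gives -2.66. Per kilobase of exon its level was 0.427 CPM in cyclopamine and 2.72 CPM in control, which is the 5.71 and the 31.0 percentile of 13424 genes with a known exon length.

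Frem1 encodes a matrix protein that joins FRAS1 and FREM2 in the Fraser complex, an anchor between epidermis and underlying mesenchyme. It measured 65.3 and 83.5 CPM in cyclopamine against 126 and 171 CPM in control. The groups did not overlap, but the spread inside each was wide: the log2 ratio of cyclopamine 1 to cyclopamine 2 was -0.35, and that of control 1 to control 2 was -0.44 (95% counting interval -0.54 to -0.34). Its difference was -0.98 (SE 0.18), and the smallest gap between groups, 1.51-fold, was the narrowest of the 8 genes. Its partners had close values in both groups. Frem2 had 96.2 and 108 CPM in cyclopamine against 94.3 and 110 CPM in control, and Fras1 had 85.5 and 93.7 CPM in cyclopamine against 84.5 and 84.6 CPM in control. Among the FRAS and FREM genes, Frem1 made up 27.8% and 30.7% of the summed per-length level in cyclopamine against 43.1% and 48.3% in control. It ranked below Frem2 in cyclopamine and above it in control.

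Fibin takes its name from zebrafish, where this secreted factor is needed for the pectoral fin bud to start. In mouse it is a single-exon gene. It measured 25.6 and 27.9 CPM in cyclopamine against 12.4 and 13.7 CPM in control, with means of 26.8 ± 1.58 CPM in cyclopamine and 13.1 ± 0.96 CPM in control (SD, n = 2 each). Inside each group the 95% counting interval of the replicates' log2 ratio included 0, at -0.34 to 0.10 in cyclopamine and -0.49 to 0.19 in control. Its difference was 1.01 (SE 0.20). Per kilobase it was the most abundant of the 8 genes in cyclopamine, at 11.8 CPM in cyclopamine against 5.76 CPM in control. The promoter window of Fibin, 250 bases before to 50 after its RefSeq start (GRCm38.p6, chr2:110362944-110363243, minus strand), is printed 5′ to 3′ on the gene's strand. Such windows are shown for 2 genes that were higher, Fibin and Kif1a, and 2 that were lower, Car12 and Ano1. Capitals mark matches to the GC box, GGGCGG or its reverse complement, of which Fibin has 0. Car12 and Ano1 are the lower genes with a GC box in their window. The windows of Aox3 and Frem1, also lower, hold 0, so those shown do not stand for the lower genes.
Fibin: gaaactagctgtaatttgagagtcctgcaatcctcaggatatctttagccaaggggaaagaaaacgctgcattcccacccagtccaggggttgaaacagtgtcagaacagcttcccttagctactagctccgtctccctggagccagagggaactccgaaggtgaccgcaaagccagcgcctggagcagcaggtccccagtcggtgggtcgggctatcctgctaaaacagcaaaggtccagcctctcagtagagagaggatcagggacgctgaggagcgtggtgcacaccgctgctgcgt

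Enpp2 encodes autotaxin, the secreted enzyme that makes the lipid signal lysophosphatidic acid. It measured 12.0 and 17.7 CPM in cyclopamine against 37.0 and 29.9 CPM in control. Every control value was above every cyclopamine value, by 1.69-fold at the closest. The replicates differed beyond counting error in both groups, by -0.56 on the log2 scale between the cyclopamine libraries (95% interval -0.87 to -0.25) and by 0.31 between the control libraries (0.10 to 0.52). The difference between groups was -1.17 (SE 0.22). Exons of Enpp2 share 345 bases with Gm26684, a long noncoding gene of the other strand. The strand setting of the read counting is not stated, so reads of the pair may be mixed.

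Car12 encodes a carbonic anhydrase of the cell surface, which interconverts carbon dioxide and bicarbonate outside the cell. It measured 53.1 and 41.8 CPM in cyclopamine against 90.3 and 80.4 CPM in control. The groups were 1.52-fold apart at the closest, next to Frem1 the narrowest gap. The replicates differed beyond counting error in both groups, by 0.34 on the log2 scale in cyclopamine (95% interval 0.18 to 0.51) and by 0.17 in control (0.04 to 0.30). Its difference of -0.85 (SE 0.16) was the smallest of the 8. Per kilobase it was the most abundant of the 8 in control, at 6.25 CPM in cyclopamine and 11.2 CPM in control. Its promoter window (chr9:66713436-66713735, plus strand) has 1 GC box, in capitals.
Car12: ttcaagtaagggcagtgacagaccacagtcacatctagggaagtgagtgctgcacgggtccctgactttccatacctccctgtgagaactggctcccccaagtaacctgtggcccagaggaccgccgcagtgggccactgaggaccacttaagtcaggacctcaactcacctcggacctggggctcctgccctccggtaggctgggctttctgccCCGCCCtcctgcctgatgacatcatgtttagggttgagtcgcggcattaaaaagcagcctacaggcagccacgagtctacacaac

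Ano1 encodes a chloride channel opened by calcium. It measured 8.68 and 11.5 CPM in cyclopamine against 25.0 and 27.7 CPM in control. Both control values were at least 2.17 times the higher cyclopamine value, and the difference was -1.35 (SE 0.21). The cyclopamine replicates differed beyond counting error, with a log2 ratio of -0.41 (95% interval -0.78 to -0.04), while the interval of the control replicates was -0.39 to 0.09. Its promoter window (chr7:144738524-144738823, minus strand), at a start inside the GENCODE gene body, has 4 GC boxes, in capitals.
Ano1: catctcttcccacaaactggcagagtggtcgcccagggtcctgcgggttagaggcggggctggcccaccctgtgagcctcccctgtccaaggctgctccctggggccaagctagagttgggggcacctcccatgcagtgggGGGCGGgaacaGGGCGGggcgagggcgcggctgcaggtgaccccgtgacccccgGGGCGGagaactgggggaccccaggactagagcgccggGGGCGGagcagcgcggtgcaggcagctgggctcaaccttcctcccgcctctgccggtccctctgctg

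Aox3 encodes an aldehyde oxidase, an enzyme that needs the molybdenum cofactor. It was the scarcest of the 8 per kilobase, with 0.268 CPM in cyclopamine and 1.07 CPM in control, and it measured 1.66 and 2.11 CPM in cyclopamine (21 and 26 reads) against 6.09 and 8.96 CPM in control (59 and 122 reads). The groups were 2.89-fold apart at the closest, and the difference was -1.74 (SE 0.33). Few reads support the cyclopamine values, where the 95% interval of the replicates' log2 ratio ran from -1.25 to 0.54. The control replicates differed beyond counting error, by -0.56 on the log2 scale (95% interval -1.03 to -0.10).

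Kif1a encodes a kinesin motor known for carrying synaptic vesicle precursors along axons. It measured 40.7 and 40.5 CPM in cyclopamine against 22.9 and 17.7 CPM in control, with means of 40.6 ± 0.138 CPM in cyclopamine and 20.3 ± 3.68 CPM in control (SD, n = 2 each). The cyclopamine libraries were nearly equal, while the control libraries differed by 0.37 on the log2 scale (95% counting interval 0.10 to 0.64). The difference between groups was 0.99 (SE 0.18). Kif1a thus lay in the opposite direction to the neuron markers. Among these Stmn2, a neuronal stathmin gene, had 2.21 and 1.22 CPM in cyclopamine against 8.25 and 8.45 CPM in control. The upstream promoter window of Kif1a (chr1:93101825-93102124, minus strand) has 0 GC boxes.
Kif1a: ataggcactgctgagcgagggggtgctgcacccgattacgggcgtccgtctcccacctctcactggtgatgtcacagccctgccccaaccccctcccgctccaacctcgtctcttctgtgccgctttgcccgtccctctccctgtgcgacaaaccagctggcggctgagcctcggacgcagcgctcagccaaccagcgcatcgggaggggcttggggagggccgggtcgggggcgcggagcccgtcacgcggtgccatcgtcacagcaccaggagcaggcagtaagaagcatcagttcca

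**Figure D2:**
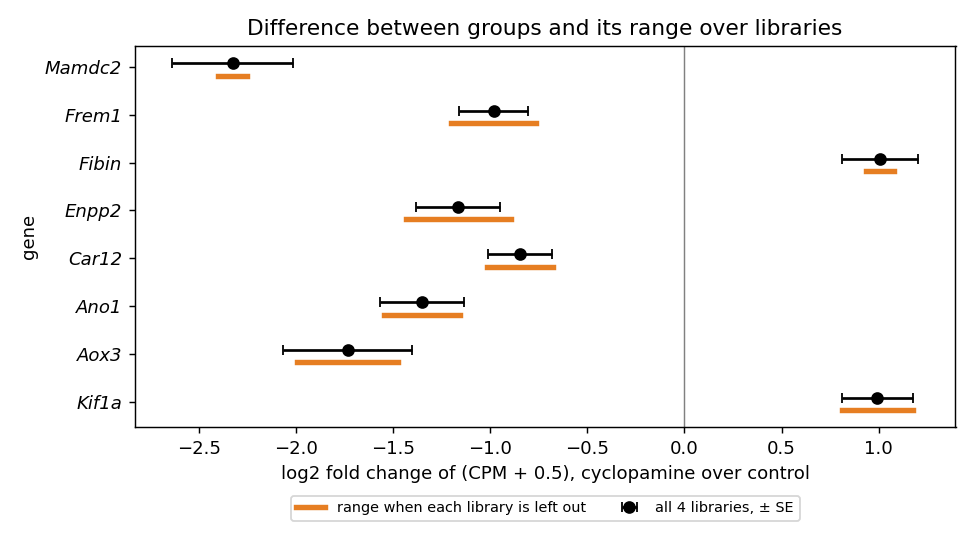
Log2 fold change of (CPM + 0.5), cyclopamine over control, for the 8 genes (horizontal axis). Black points with bars are the estimate ± SE from all 4 libraries, and orange lines span the estimates when each library is left out. No line reaches 0, and the widest belongs to Enpp2, from -1.44 to -0.90.

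The size of each difference depended on the libraries included. Leaving out each library in turn gave -2.40 to -2.25 for Mamdc2, -1.55 to -1.16 for Ano1, -2.00 to -1.47 for Aox3 and -1.20 to -0.77 for Frem1. Car12 ran from -1.02 to -0.68, Fibin from 0.94 to 1.08 and Kif1a from 0.81 to 1.18. The direction of each gene was fixed by how the genes were picked, so its constancy carries no weight.

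The libraries of a group were not ordered alike in the 8 genes. Frem1, Aox3, Ano1, Fibin and Mamdc2 were higher in control 2 than in control 1, and Enpp2, Car12 and Kif1a were lower. Fibin, Enpp2, Frem1, Ano1 and Aox3 were higher in cyclopamine 2 than in cyclopamine 1. The summed neuron and neural progenitor markers were higher in control 2.

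**Figure D3:**
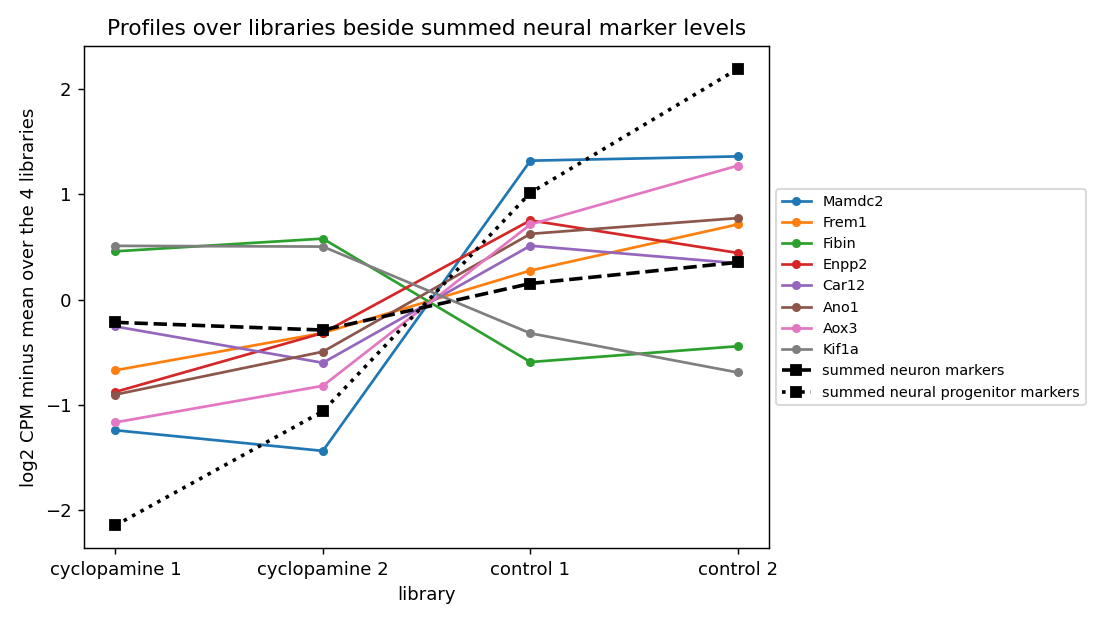
Log2 CPM minus the gene's mean over the 4 libraries (vertical axis) for the 8 genes and, in black, for the summed neuron and neural progenitor markers. Lines only join the points of a gene. The neuron markers sum to 146 and 139 CPM in cyclopamine against 189 and 217 CPM in control, and 6 of the genes lie the same way, while Fibin and Kif1a run the other way.

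The genes whose profiles over the 4 libraries were most like each of the 8 were found by Euclidean distance between mean-centred log2(CPM + 0.5) values. These are the same 4 libraries on which the 8 genes were picked. A lower gene thus finds other lower genes, and neuron markers are among those, so a match is no support for a link. For Mamdc2 the nearest were Thy1 (distance 0.36), Stmn2 (0.46) and Nhlh2 (0.49), all known from neurons. Thy1 had 0.473 and 0.648 CPM in cyclopamine against 4.44 and 3.89 CPM in control. Nhlh2 was also scarce, with 0.552 and 0.162 CPM in cyclopamine against 2.79 and 4.04 CPM in control. For Aox3 they were Stac (0.27), Tubb3 (0.30), a neuronal tubulin gene, and Akap6 (0.35). Tubb3 had 3.47 and 5.83 CPM in cyclopamine against 14.4 and 20.4 CPM in control. For Ano1 they were Pappa2 (0.14), Cntn2 (0.16), which encodes an axonal adhesion protein, and Lrp2 (0.32). For Frem1 they were Rhbdl3 (0.10), Nrcam (0.12) and Syn1 (0.13). The neural marker sums given above lie in the same direction as all 6 lower genes, not only these 4. The direction of the genes was fixed by how they were picked, and the part of neural tissue in the result was not tested. In whole limbs, fewer cells of a type in the tissue taken, whatever the reason, and less RNA per cell cannot be told apart.

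For Enpp2 the nearest were Nkain3 (0.08), Scn11a (0.15) and Fgf1 (0.16), all at or under 4.85 CPM. For Car12, Alpl, the gene of tissue-nonspecific alkaline phosphatase, was almost superimposed at a distance of 0.02. It had 7.34 and 5.59 CPM in cyclopamine against 12.5 and 11.2 CPM in control. Lmcd1 (0.11) and Tulp2 (0.13) followed. For Fibin the nearest were Rab27b (0.07), Mtmr11 (0.11) and Anxa9 (0.15), and for Kif1a they were Mpv17l2 (0.04), Rab38 (0.14) and Bcl3 (0.17). With 4 libraries and 12725 genes searched, close profiles arise easily, and the distances are a description only.

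Close relatives and pathway partners of the 8 genes were listed by family, pathway or position, with earlier results of these data known. The shares below are therefore a description. Of 112 such genes tested, 0 rose and 2 fell, Fgf8 and Fgf4 (limma, adjusted over all genes), or 1.79% against the background of 0.28% over all genes tested. Both were called in each fit that left out a library, and neither with no filter on low values or without an intensity trend in limma. Fgf4 has no value at a mean of at least 5 CPM. At an unadjusted p under 0.05 limma had 14 of the 112, or 12.5% against 5.82% over all genes tested, and edgeR and DESeq2 on recovered reads each called the same 2. By list the 14 were 4 forelimb initiation genes, 3 carbonic anhydrases, 2 transport genes and 1 each of the neighbours, the lysophosphatidic acid genes, the MAM domain genes, the kinesin-3 genes and the other kinesin and adaptor genes, with 0 in the other lists. Of the 112, 56 had a log2 fold change above 0 and 56 below, with a median of 0.00, as over all genes tested.

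Among the 4 tested anoctamins beside Ano1, 0 passed. Ano6, a lipid scramblase gene and the most abundant, had 93.1 and 100.1 CPM in cyclopamine against 80.1 and 92.3 CPM in control. Ano10 had 35.0 and 28.5 CPM in cyclopamine against 36.7 and 28.7 CPM in control, and Ano8 had 26.7 and 25.4 CPM in cyclopamine against 21.8 and 27.3 CPM in control. These relatives had log2 fold changes of 0.17, -0.04 and 0.09. Ano1 made up 7.22% and 9.57% of the per-length level of the family in cyclopamine against 19.6% and 20.5% in control. By that level it held rank 4 of 10 in cyclopamine and rank 3 of 10 in control.

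Of 9 tested genes for making, degrading or sensing lysophosphatidic acid, 0 passed and 7 lay above 0. The receptor gene Lpar1 was far more abundant than the enzyme, at 174 and 224 CPM in cyclopamine against 152 and 191 CPM in control. Lpar4, another receptor gene, had 45.5 and 44.8 CPM in cyclopamine against 35.5 and 41.9 CPM in control. Ppap2b, which encodes a phosphatase that degrades the lipid, had 94.0 and 132 CPM in cyclopamine against 117 and 127 CPM in control. Of the 4 other ENPP genes tested 0 passed. Per kilobase, Enpp5 was the most abundant of the family in cyclopamine, at 2.61 CPM beside 2.57 CPM for Enpp2, and Enpp2 was the most abundant in control. Enpp2 held 24.6% and 31.7% of the summed family level in cyclopamine against 46.8% and 50.4% in control. Enpp3 and Enpp4 had log2 fold changes of -0.16 and 0.46.

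**Figure D4:**
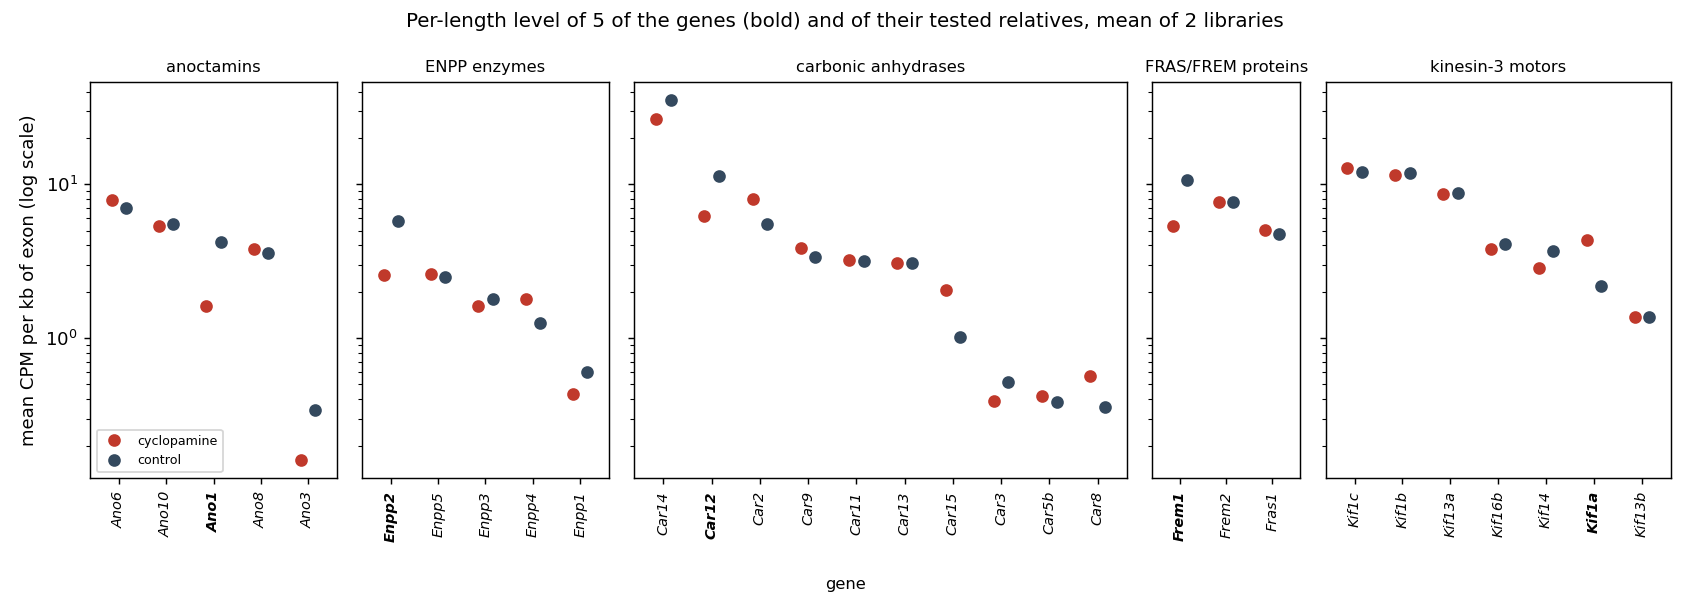
Mean CPM per kilobase of exon (vertical log axis, mean of 2 libraries) of 5 of the genes, in bold, and their tested relatives, cyclopamine in red and control in blue. By these means Enpp2 and Frem1 are below the top of their families in cyclopamine, Enpp2 by a near tie, and at the top in control. Kif1a is at 4.35 in cyclopamine against 2.18 in control.

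Of the 9 tested carbonic anhydrases, 0 passed. Car14, another membrane form and the most abundant per kilobase, had 65.4 and 70.2 CPM in cyclopamine against 81.2 and 97.0 CPM in control (log2 fold change -0.39, SE 0.15). Car2, a cytosolic form, had 22.8 and 16.1 CPM in cyclopamine against 15.0 and 11.8 CPM in control, and Car9, a surface form, had 9.15 and 8.51 CPM in cyclopamine against 8.05 and 7.49 CPM in control. Of 11 bicarbonate, lactate and proton transport genes, 0 passed. Slc16a3 and Slc16a1, monocarboxylate transporter genes, and the bicarbonate transporter gene Slc4a7 were the most abundant, with log2 fold changes of -0.26, -0.22 and -0.26. Slc4a1, known from red cells, had 27.4 and 16.4 CPM in cyclopamine against 18.7 and 7.20 CPM in control, beside 6 erythroid markers that summed to 2134 and 1254 CPM in cyclopamine against 1305 and 606 CPM in control. Slc4a4, another bicarbonate transporter gene, had 17.3 and 22.7 CPM in cyclopamine against 31.6 and 37.7 CPM in control, which is -0.79 ± 0.20 (SE) as a log2 fold change and did not pass in limma (adjusted p = 0.194). Without cyclopamine 2 both Slc4a1 and Slc4a4 were called, and without control 1 Slc4a1 was. Both were named after their values were seen.

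For Aox3, 6 relatives and molybdenum cofactor genes were tested and 0 passed. Gphn had 35.3 and 34.4 CPM in cyclopamine against 33.6 and 32.0 CPM in control, Mocs2 had 29.0 and 28.9 CPM in cyclopamine against 21.4 and 25.5 CPM in control, and Mocs1 had 17.8 and 18.7 CPM in cyclopamine against 19.2 and 18.0 CPM in control. All 3 take part in making the cofactor. Their log2 fold changes were 0.09, 0.30 and -0.02. The aldehyde oxidase genes on either side of Aox3 were scarce. Aox1 had 10 and 11 reads in cyclopamine against 6 and 2 in control, and Aox4 had 19 and 20 reads in cyclopamine against 31 and 26 in control.

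The 6 tested genes of the Fraser complex and its integrin partners had a median of -0.06, and 0 passed. Itgb1, an integrin subunit gene, was the most abundant, at 454 and 412 CPM in cyclopamine against 421 and 418 CPM in control. Of 10 tested MAM domain genes beside Mamdc2, 0 passed and 7 lay below 0. Nrp2, Nrp1 and Ptprk, receptor genes, had log2 fold changes of -0.20, 0.05 and 0.00.

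Among the 6 tested kinesin-3 genes beside Kif1a, 0 passed. Kif1b, a close relative, had 186 and 218 CPM in cyclopamine against 186 and 232 CPM in control, Kif1c had 96.6 and 87.4 CPM in cyclopamine against 92.0 and 81.8 CPM in control, and Kif13a had 70.1 and 68.7 CPM in cyclopamine against 71.3 and 70.2 CPM in control. Kif1a held 9.79% and 9.54% of the per-length level of the family in cyclopamine against 5.64% and 4.29% in control. Of 15 other tested kinesin and cargo adaptor genes 0 passed, with Kif5b, Kif21b and Kif26b the most abundant and at log2 fold changes of -0.01, 0.01 and 0.04.

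Fibin has no close family, so genes of forelimb initiation were taken beside it. Of 12, 1 fell and 10 lay below 0, with a median log2 fold change of -0.32 against 0.00 over all genes tested. The gene that fell was Fgf8, a growth factor of the apical ridge, at 10.2 and 9.40 CPM in cyclopamine against 30.8 and 32.3 CPM in control (-1.64, SE 0.20, limma adjusted p = 0.000973). Fibin was higher in the same libraries. Tbx5, which starts the forelimb bud, had a log2 fold change of -0.02.

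The genes lie on 7 chromosomes of mm10, which is GRCm38, and all are protein-coding in GENCODE vM21. Mamdc2 is at chr19:23302609-23448442, Frem1 at chr4:82897920-83052339, Fibin at chr2:110360917-110363183 and Enpp2 at chr15:54838901-54952892. Car12 is at chr9:66713686-66766845, Ano1 at chr7:144588549-144751974, Aox3 at chr1:58113130-58200698 and Kif1a at chr1:93015464-93101951. Car12 and Aox3 are on the plus strand and the others on the minus strand. Of the 8, Enpp2 was the gene with exons that overlap another gene.

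The 2 nearest genes of the table on each side of each gene gave 32 neighbours, of which 23 were tested, 0 rose and 1 fell. That neighbour was Fgf4, which lies 109 kb from Ano1 and encodes a growth factor of the apical ridge. Fgf4 had 0.316 and 0.486 CPM in cyclopamine (4 and 6 reads) against 5.67 and 9.70 CPM in control (55 and 132 reads), which is -3.15 on the log2(CPM + 0.5) scale (SE 0.40; adjusted p = 0.00128 in limma). Fgf3, between Fgf4 and Ano1 and 86.6 kb from Ano1, had 0 reads in both cyclopamine libraries against 2 and 8 reads in control and was not tested. On the other side of Ano1, Fadd, 6.11 kb away, had 17.8 and 17.3 CPM in cyclopamine against 17.1 and 20.6 CPM in control. Ppfia1, beyond Fadd, had a log2 fold change of 0.00. Ano1, Fgf3 and Fgf4, which follow each other in the table's gene order, were thus lower in cyclopamine, Fgf3 by few reads and untested. Ano1 was picked for its direction, and 15.8% of all genes tested were lower without overlap. The run is therefore a description, and shared control of the locus was not tested.

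**Figure D5:**
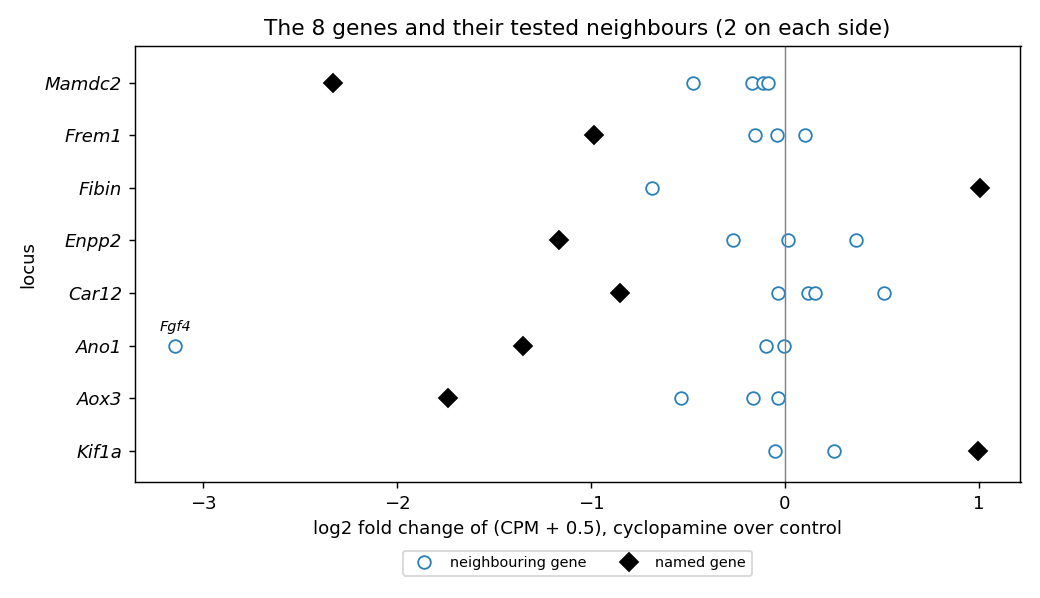
Log2 fold change of (CPM + 0.5), cyclopamine over control (horizontal axis), of the 8 genes (diamonds) and of their tested neighbours (circles), 2 on each side, a row per locus. Apart from Fgf4 beside Ano1, at -3.15, the circles lie between -0.68 and 0.51.

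At the other 7 loci no neighbour passed. Next to Mamdc2, Smc5 had 155 and 143 CPM in cyclopamine against 171 and 164 CPM in control. Next to Car12, Aph1b, 8.36 kb away, had 38.3 and 33.6 CPM in cyclopamine against 33.2 and 32.8 CPM in control. The genes flanking Fibin were mostly too scarce to test. Among them Bbox1 had 4 and 20 reads in cyclopamine against 0 and 1 in control, Slc5a12 had 17 and 9 against 8 and 12, and 1700024P03Rik had 1 and 5 against 1 and 5. Ano3, the neighbour of Fibin that was tested, had 1.26 and 1.05 CPM in cyclopamine against 1.13 and 3.82 CPM in control (log2 fold change -0.68).

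All promoter windows, including those printed above, came from RefSeq on GRCm38.p6 and were searched for short motifs on both strands. The 8 windows found cover 6 of the genes. The GLI consensus GACCACCCA was in 0 of the 8, as in all but 0.253% of 32851 windows, so this search had little to find. GC boxes (GGGCGG, in 35.7% of all windows) were in the windows of Ano1, with 4 matches, and Car12, with 1. CCAAT, in 37.4% of all windows, was matched in Aox3 once and 2 times in the upstream window of Frem1. The TATA motif TATAAA, in 13.6% of all windows, was in 0 of the 8. No match overlapped a match of another motif in the windows shown, which hold GC boxes only. No match says only that these letters are absent from the window.

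Of the windows printed, those of Fibin and Kif1a held no match to any of the motifs, and those of Ano1 and Car12 held GC boxes. Aox3 and Frem1, also lower, held 0 GC boxes. GC content was 56.3% for Fibin, 67.0% for Kif1a, 71.7% for Ano1 and 58.3% for Car12. With 4 windows this is a description of the sequences shown. Of the windows printed, those of Ano1, Fibin and Kif1a are placed on a RefSeq start inside the GENCODE gene body, downstream of the GENCODE gene start. The Fibin and Kif1a windows still span that gene start, so they reach less far upstream of it. The Ano1 window does not span it, and no window at the GENCODE gene start of Ano1 was searched.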

How the data were processed

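The members and the related gene lists were chosen with earlier results of these data known. The deposited signal is a read count per gene that the authors scaled to an effective library size of 1000000 (CPM). The submitters' processing notes name, without role or order, the mm10 build, edgeR 3.4.2, HTSeq 0.5.4p5, TopHat2 2.0.9, SAMtools and Bowtie. Annotation, strand and multi-mapping choices were not stated. The second deposited table gives the authors' log2 fold change, p-value and false discovery rate per gene.

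Values were whole multiples of 1 read per library (100% within 0.01 of a whole read), so reads were recovered. Genes averaging 1 CPM or more entered limma 3.58.1 (R 4.3.3), which modelled log2(CPM + 0.5) and an intensity trend. Its p-values, two-sided, were adjusted by Benjamini-Hochberg across 13568 genes and called under 0.05. The fit was tested on simulated data. An exact permutation of 2 against 2 libraries cannot reach 0.05, so the test relies on spread shared across genes. Intervals between replicates are exact binomial (95%) and cover counting error only. They take each read as an independent molecule, though no molecular identifiers mark such molecules, so they may be too narrow. Exon lengths are unions over GENCODE vM21 exons, and older symbols were matched through RefSeq GRCm38.p6.

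Genes named were all 8 members, called genes of each list or else its 3 most abundant, neighbours at each locus and the 3 nearest profiles per member. Slc4a1, Slc4a4, Tbx5 and Ina were added after their values were seen. Alternatives were edgeR 4.0.16 and DESeq2 1.42.0 on recovered reads, other scaling, filters, pseudocounts and variance model, a replicate block, and leaving out each library. Of the listed genes, 142 of 152 were found in the table, and the rest were not analysed here.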

Additional observations from a re-analysis of the deposited data

How the results depend on the processing

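The 38 genes called in cyclopamine against control became 2 with no filter on low values, 0 when limma had no intensity trend (837 at unadjusted p under 0.05, with 40 called in edgeR and 52 in DESeq2), and 43 to 122 when each library was left out (79 without control 1, 43 without control 2, 122 without cyclopamine 1, 84 without cyclopamine 2). The replicate block gave 351, of which 186 rose and 165 fell, and included all 38. The replicate numbers share no stated litter or day. The deviations of control 1 and cyclopamine 1 from their group means correlated at 0.27 over the genes tested. With 2 libraries per group, those of control 2 and cyclopamine 2 are their mirror image and add nothing. The 2 related genes called became 0 with no filter, 0 without a trend, 1 at a mean of at least 5 CPM, 7 with the replicate block, and 2 to 4 when each library was left out. Of 103 refitted log2 fold changes of the 8 genes, 98 moved by less than the SD between replicates and 5 by more, all for Mamdc2 or Aox3: with a pseudocount of 2 these were -1.72 and -1.28, and for Mamdc2 also -2.49 with 0.25, -2.67 in edgeR and -2.67 in DESeq2. That count is no measure of stability. Leaving out a library cannot move a value by more than this SD. The filters, the trend and the replicate block leave each value unchanged. The number of the 8 genes past the threshold follows from how they were picked and ranks none of them. It was 8 in limma, 0 with no filter, 0 without a trend, 7 with a pseudocount of 2 (not Fibin), 5 without control 1 (not Enpp2, Car12 and Fibin), 5 without control 2 (not Aox3, Frem1 and Kif1a), 7 without cyclopamine 1 (not Enpp2) and 6 without cyclopamine 2 (not Car12 and Fibin). Aox3 has no value at a mean of at least 5 CPM. The cause of these moves was not tested. Depth limits Mamdc2 and Aox3, with 17 to 26 reads per cyclopamine library.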
